A study of Paralichthys olivaceus with 6 samples.

Results

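The genes described here are 4 genes of muscle measured in flounder skin: desmin (DES, GS_020318), troponin T of the cardiac type (TNNT2, GS_009467), musculoskeletal embryonic nuclear protein 1 (MUSTN1, GS_002131) and the methyltransferase METTL21C (GS_015381), out of 22498 genes in the count table. They were picked as the muscle genes among those that the study listed as different between albino and normally pigmented fish, so the albino and normal levels of these libraries chose them, and those levels are given as a description with no test. The study's list was called by a test that also weighs the spread of each gene within a group, so that spread too is a description. The choice made no use of how 1 gene varied with another among fish of the same group. The libraries came from the ocular-side skin of Japanese flounder (Paralichthys olivaceus) at 5 months of age, the genotype being given as wild type or albino, and all fish belonged to 1 full-sib family. There were 3 normal fish (PO_con1, PO_con2 and PO_con3) and 3 albino fish (PO_alb1, PO_alb2 and PO_alb3), with 1 library of total RNA from each and no treatment in either group.

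Striated muscle shortens when myosin pulls on actin filaments, and troponin, with tropomyosin on the thin filament, lets this happen when calcium is released. Desmin forms the intermediate filaments that link neighbouring myofibrils to each other and to the cell membrane, and it is made in smooth muscle as well as in skeletal and heart muscle. Fish skin lies on the trunk muscle, and the skin itself holds smooth muscle in the walls of its vessels, so that reads of muscle genes in a skin library do not by themselves name a cell type. In bulk RNA, a change in the number of cells of a type and a change in the RNA made per cell cannot be told apart.

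The counts summed to between 17905084 and 20025047 per library. The 10 most abundant genes held 25.1% to 37.3% of a library, the lowest share being that of PO_con3 and the highest that of PO_alb3. Between albino and normal fish edgeR's quasi-likelihood test called 1.04% of 16260 genes, and its outcome for the 4 genes is not given, since this contrast chose them. Libraries were scaled by TMM, a method of edgeR that sets the bulk of the genes equal between libraries. TMM moved all genes of PO_con3 by -0.34 and all genes of PO_alb3 by 0.33 on the log2 scale against scaling by library totals, and between the groups it moved the median of all genes tested by 0.13. Results that rest on the scaling are therefore given under both. A ratio of the reads of 2 genes in 1 library does not change with the scaling. CPM below stands for counts scaled to a common library size by TMM, unless library totals are named. RPKM is the deposited level per length of gene, scaled by the summed counts of the library.

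Desmin, the filament protein, was the most abundant of the 4 by far. Its RPKM, a level per length, was 809, 852 and 579 in PO_con1, PO_con2 and PO_con3 and 1287, 1518 and 1398 in PO_alb1, PO_alb2 and PO_alb3. By this level desmin ranked 132nd, 136th and 183rd of the 22498 genes in the normal fish and 74th, 58th and 48th in the albino fish, in the same order. It was thus among the abundant transcripts of every skin sample, normal fish included. The CPM of DES was 1290, 1160 and 639 in the normal and 1723, 2031 and 2476 in the albino fish. The groups did not overlap, and PO_con3 was the lowest fish and PO_alb3 the highest. The difference of albino minus normal, as estimated by the edgeR fit, was 1.01 on the log2 scale (SE 0.30, n = 3 and 3). Here and for the other 3 genes the SE is the log2 difference divided by the square root of that fit's F statistic. It thus comes from the contrast that chose the genes, draws also on the spread of other genes and is a description. With library totals alone the highest fish was PO_alb2 and not PO_alb3, at 2126 against 1959 CPM.

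TNNT2, the subunit that ties troponin to tropomyosin, was the scarcest of the 4. It was counted with 80, 44 and 12 reads in PO_con1, PO_con2 and PO_con3 and with 138, 144 and 92 reads in PO_alb1, PO_alb2 and PO_alb3. The 12 reads of PO_con3 have a 95% Poisson interval of 6.20 to 21.0, which covers counting error only. In RPKM the level was 4.82, 2.90 and 0.795 in the normal and 9.31, 9.33 and 6.14 in the albino fish. In CPM it was 4.55, 2.33 and 0.518 in the normal and 7.36, 7.38 and 6.43 in the albino fish. The groups did not overlap, but the normal fish were far apart, PO_con1 being 8.78 times PO_con3. The log2 difference of albino minus normal was 1.55 (SE 0.57), and it was 2.35 without PO_con1 and 1.06 without PO_con3.

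MUSTN1 encodes a small nuclear protein of developing and regenerating muscle and skeleton, known from mammals. Its counts were 378, 248 and 206 in PO_con1, PO_con2 and PO_con3 and 763, 821 and 615 in PO_alb1, PO_alb2 and PO_alb3. The RPKM was 80.7, 57.8 and 48.3 in the normal and 182, 188 and 145 in the albino fish, so that per length MUSTN1 stood between desmin and METTL21C in every fish. Its coding length in the table is only 234 bases, against 1401 for DES, 828 for TNNT2 and 939 for METTL21C. The CPM was 21.5, 13.1 and 8.89 in the normal and 40.7, 42.1 and 43.0 in the albino fish. The groups did not overlap and the albino fish lay close together, with a log2 difference of 1.54 (SE 0.29).

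METTL21C is a lysine methyltransferase found mainly in skeletal muscle of mammals. Its counts were 315, 332 and 334 in PO_con1, PO_con2 and PO_con3 and 789, 563 and 661 in PO_alb1, PO_alb2 and PO_alb3. The RPKM was 16.8, 19.3 and 19.5 in the normal and 46.9, 32.2 and 38.9 in the albino fish. The CPM was 17.9, 17.6 and 14.4 in the normal and 42.1, 28.9 and 46.2 in the albino fish. Here the normal fish lay close together and the albino fish apart, with PO_alb2 the lowest of them, and the groups again did not overlap. The log2 difference was 1.23 (SE 0.20).

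In every fish the order of the levels per length was the same, with DES highest, then MUSTN1, METTL21C and TNNT2. Neighbours in this order differed by more than their spread within either group. All 4 genes lay higher in all albino fish than in all normal fish, a pattern shown by 5.73% of the 16260 genes tested (13.2% did not overlap in either direction). This follows from how the 4 were chosen. Log2 differences against the median of all genes tested were taken from mean log2 CPM and not from the edgeR fit. They were 1.05 for DES, 1.89 for TNNT2, 1.61 for MUSTN1 and 1.19 for METTL21C, and with library totals 1.05, 1.90, 1.60 and 1.19.

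**Figure D1:**
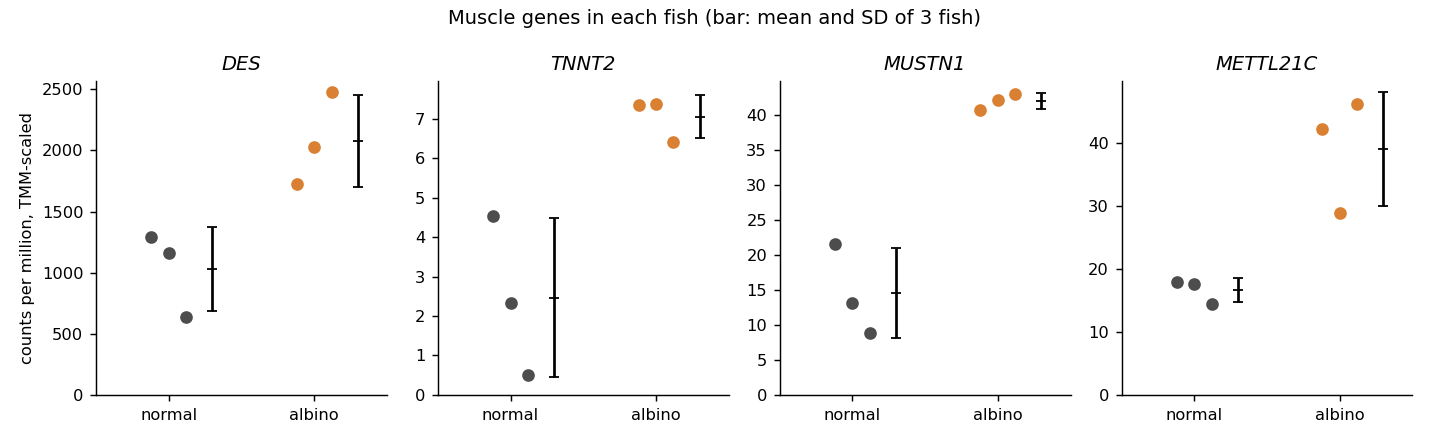
CPM after TMM (vertical axis, from 0) of the 4 muscle genes in the 3 normal and 3 albino fish, 1 point a fish in the order of the fish numbers, with the mean and SD of each group beside the points. No gene overlaps between the groups, the normal fish are spread widely for TNNT2 (0.518 to 4.55), and the albino fish lie close together for MUSTN1 (40.7 to 43.0).

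The spread among fish of 1 group is given as a description, since the test behind the study's list used it. In normal fish the SD of log2 CPM was 1.48 for TNNT2, 0.63 for MUSTN1, 0.55 for DES and 0.17 for METTL21C, where the median of all genes tested was 0.25. These placed TNNT2 at the 99.7th percentile of the genes tested, MUSTN1 at the 93.0th, DES at the 88.6th and METTL21C at the 30.9th. In albino fish the SD was 0.11 for TNNT2, 0.039 for MUSTN1, 0.26 for DES and 0.36 for METTL21C, with a median of 0.23 over all genes. TNNT2 and MUSTN1 thus varied more than most genes among normal fish and less than most among albino fish, while METTL21C had its larger spread in the albino fish. With library totals the wide spread of TNNT2 in normal fish remained (SD 1.24, 99.2nd percentile), but that of DES (0.30, 42.3rd percentile) and MUSTN1 (0.37, 55.4th percentile) was near that of an ordinary gene. In albino fish with library totals the SD was 0.34 for TNNT2, 0.20 for MUSTN1, 0.12 for DES and 0.27 for METTL21C, and TNNT2 was then at the 55.4th percentile and MUSTN1 at the 27.0th.

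**Figure D2:**
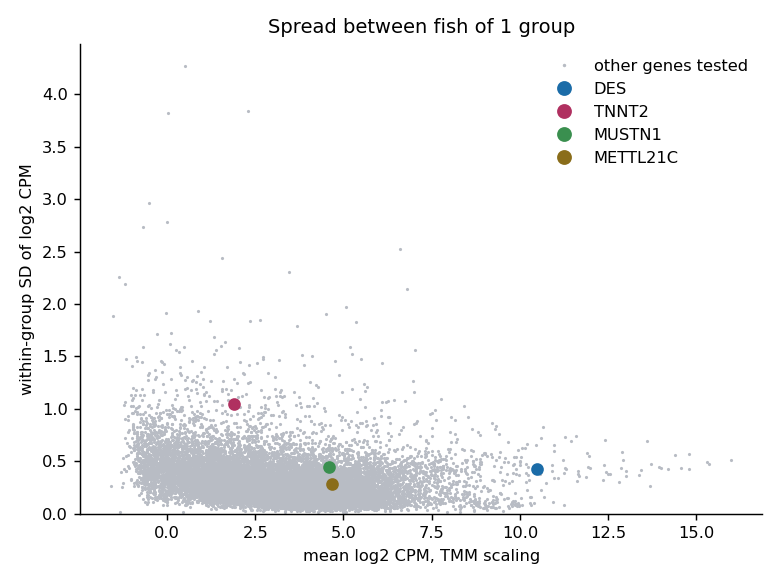
Within-group SD of log2 CPM over the 6 fish (vertical axis) against mean log2 CPM (horizontal axis), both after TMM, with 1 grey dot for each other gene tested and coloured points for the 4 muscle genes. TNNT2 lies above most genes of its level at 1.05, DES and MUSTN1 lie at 0.43 and 0.45, and METTL21C at 0.28 is within the bulk.

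Whether the 4 genes moved together from fish to fish was asked by taking each fish as its deviation from the mean log2 CPM of its group, which removes the difference between albino and normal. Among normal fish PO_con3 was the lowest for all 4 genes, with deviations of -0.62 for DES, -1.62 for TNNT2, -0.61 for MUSTN1 and -0.20 for METTL21C. PO_con1 was the highest normal fish for all 4, at 0.39, 1.28, 0.66 and 0.11 in the same order. Among albino fish the 4 genes did not share an order. PO_alb3 was the highest albino fish for DES (0.27), MUSTN1 (0.04) and METTL21C (0.27) but the lowest for TNNT2 (-0.13), and PO_alb2 was the lowest for METTL21C (-0.41) and near the middle for DES (-0.02).

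**Figure D3:**
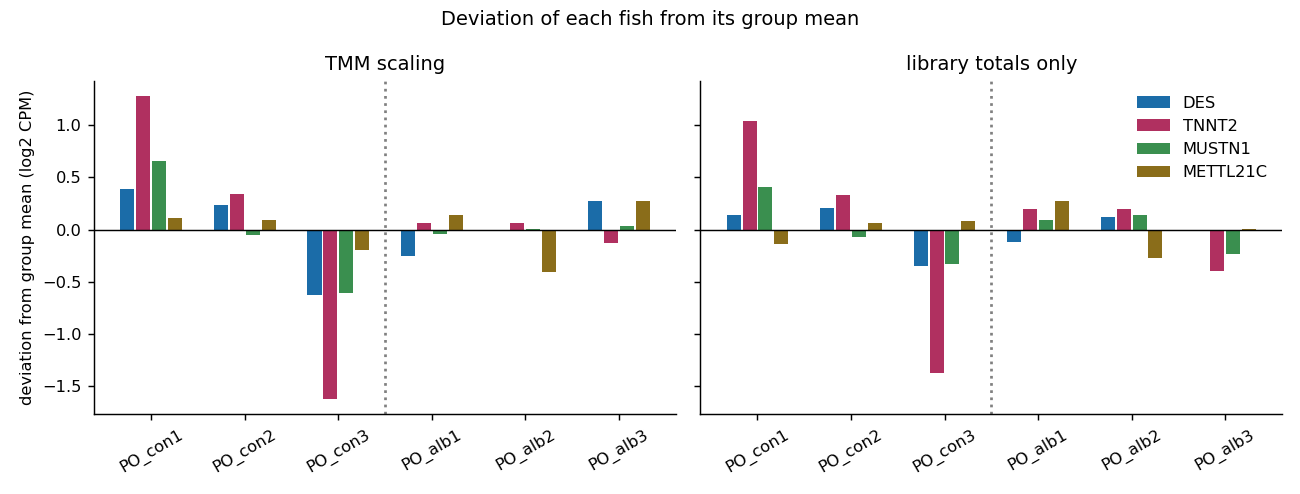
Deviation of each fish from the mean of its own group in log2 CPM (vertical axis) for the 4 muscle genes, after TMM (left) and with library totals alone (right), with normal fish left and albino fish right of the dotted line. PO_con3 is below the mean for all 4 genes after TMM, and for METTL21C it is above the mean with library totals.

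Over the 6 fish, the pairs among DES, TNNT2 and MUSTN1 had a higher r after TMM than the pairs with METTL21C. Whether the pairs differ was not tested, and by rho they were less far apart. The within-group Pearson correlation was 0.96 between TNNT2 and MUSTN1 (exact permutation p = 0.306), 0.86 between DES and TNNT2 (exact permutation p = 0.139) and 0.84 between DES and MUSTN1 (exact permutation p = 0.167). With METTL21C it was 0.48 for DES (exact permutation p = 0.306), 0.37 for TNNT2 and 0.38 for MUSTN1 (exact permutation p = 0.333 for each). The mean was 0.88 over the 3 pairs without METTL21C and 0.41 over the 3 pairs with it. Spearman's rho of the same deviations was 0.83 for DES and MUSTN1 (exact permutation p = 0.139) and 0.66 for DES and TNNT2 (exact permutation p = 0.333). It was 0.49 for TNNT2 and MUSTN1 (exact permutation p = 0.472), 0.43 for DES and METTL21C (exact permutation p = 0.333), 0.43 for MUSTN1 and METTL21C (exact permutation p = 0.25) and -0.086 for TNNT2 and METTL21C (exact permutation p = 0.917).

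The tests were two-sided and moved fish only within their group, which allows 36 arrangements and a smallest p of 0.0278. Adjusted over the 6 pairs by the Benjamini-Hochberg method, p was 0.333 for every r and 0.5 to 0.917 for rho. No pair passed after TMM, and 0 of the 6 had an unadjusted p under 0.05, also with library totals, where the smallest was 0.0833. On log2(RPKM + 1) the pair of TNNT2 and MUSTN1 reached the smallest possible p (r 0.94, exact permutation p = 0.0278, adjusted p = 0.167). A pair that alone reaches the smallest p thus cannot pass 0.05 after adjustment over the 6 pairs. The adjusted tests therefore could not decide whether any single pair varied together.

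The correlations rested on few fish. Without PO_con3 and PO_alb1, the 2 fish farthest from the median deviation of DES, r was 0.28 for DES and TNNT2, 0.51 for DES and MUSTN1 and 0.90 for DES and METTL21C. Without PO_con3 and PO_con1, the 2 farthest for TNNT2 and for MUSTN1, only 1 normal fish is left, which then lies at its own mean, and r was -0.78 for TNNT2 and MUSTN1, -0.66 for TNNT2 and METTL21C and 0.051 for MUSTN1 and METTL21C. Without PO_con3 alone, r was 0.072 for DES and TNNT2, 0.38 for DES and MUSTN1, 0.26 for DES and METTL21C, 0.95 for TNNT2 and MUSTN1, -0.11 for TNNT2 and METTL21C and 0.055 for MUSTN1 and METTL21C. After TMM the correlation of DES with TNNT2 therefore rested on PO_con3. That of TNNT2 with MUSTN1 rested on the normal fish, since it was below 0 once both PO_con1 and PO_con3 were left out. With library totals the deviations in PO_alb1, PO_alb2 and PO_alb3 were 0.20, 0.20 and -0.39 for TNNT2. They were 0.09, 0.14 and -0.23 for MUSTN1, so these 2 genes then had the same order in the albino fish. Leaving out PO_alb2 alone, after TMM, raised the pairs with METTL21C to 0.995 for DES, 0.88 for TNNT2 and 0.83 for MUSTN1.

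METTL21C also changed side with the scaling. With library totals its r was -0.51 with DES, -0.31 with TNNT2 and -0.40 with MUSTN1, while the pairs without it stayed above 0, at 0.82 for DES and TNNT2, 0.58 for DES and MUSTN1 and 0.90 for TNNT2 and MUSTN1. In CPM by library totals METTL21C was 15.7, 18.1 and 18.3 in PO_con1, PO_con2 and PO_con3, where PO_con3 was the lowest fish for DES, TNNT2 and MUSTN1. In the albino fish it was 44.1, 30.2 and 36.5, with PO_alb2 lowest, where DES and MUSTN1 were highest in PO_alb2. The sign of the relation of METTL21C to the other 3 genes thus depended on the scaling.

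The reads of each gene per 1000 desmin reads, which no scaling changes, were compared next. TNNT2 had 3.53, 2.01 and 0.811 reads per 1000 desmin reads in PO_con1, PO_con2 and PO_con3 and 4.27, 3.64 and 2.60 in PO_alb1, PO_alb2 and PO_alb3. The highest was 5.27 times the lowest, and the 95% counting intervals (exact, from the binomial share) of PO_con1, at 2.80 to 4.39, and PO_con3, at 0.419 to 1.42, did not overlap. The CV among normal fish was 64.3%, and 60.1%, 88.6% and 38.7% without PO_con1, PO_con2 and PO_con3 in turn. Among albino fish it was 24.2%, and 23.6%, 34.5% and 11.4% without PO_alb1, PO_alb2 and PO_alb3 in turn. PO_con1 had a ratio inside the range of the albino fish and the other normal fish lay below it.

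MUSTN1 had 16.7, 11.3 and 13.9 reads per 1000 desmin reads in the normal and 23.6, 20.7 and 17.4 in the albino fish. The highest was 2.09 times the lowest over the 6 fish, and the CV within a group was 19.1% for normal and 15.3% for albino fish. In normal fish it was 14.5%, 12.7% and 27.0% without PO_con1, PO_con2 and PO_con3 in turn. In albino fish it was 12.5%, 21.6% and 9.26% without PO_alb1, PO_alb2 and PO_alb3 in turn. The point values did not overlap between the groups. The counting intervals of PO_con1, at 15.0 to 18.4, and PO_alb3, at 16.0 to 18.8, did overlap. Both genes were chosen by their levels in the groups, so this is a description with no test.

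METTL21C had 13.9, 15.2 and 22.6 reads per 1000 desmin reads in the normal and 24.4, 14.2 and 18.7 in the albino fish. Its ratio overlapped between the groups, with a mean of 17.2 ± 4.68 (SD, n = 3) for the normal fish and one of 19.1 ± 5.13 (SD, n = 3) for the albino fish, and PO_con3 and PO_alb1 were the high fish. The CV among normal fish was 27.2%, and 27.7%, 33.7% and 6.23% without PO_con1, PO_con2 and PO_con3 in turn. Among albino fish it was 26.8%, and 19.1%, 19.0% and 37.4% without PO_alb1, PO_alb2 and PO_alb3 in turn. Within each group the highest and lowest fish were 1.62-fold and 1.72-fold apart, and their counting intervals did not overlap: 12.4 to 15.5 in PO_con1 against 20.2 to 25.2 in PO_con3, and 13.1 to 15.4 in PO_alb2 against 22.7 to 26.2 in PO_alb1. For the pair of MUSTN1 and TNNT2, the most alike by correlation, reads of MUSTN1 per read of TNNT2 varied 1.21-fold among albino fish and 3.63-fold among normal fish, the high value being that of PO_con3 with its 12 TNNT2 reads. The CV of this ratio was 75.6% among normal fish, and 71.5%, 80.4% and 12.4% without PO_con1, PO_con2 and PO_con3 in turn. Reads of METTL21C per read of TNNT2 varied most of all pairs. They varied 7.07-fold among normal fish (CV 98.3%) and 1.84-fold among albino fish (CV 29.3%). The high value was again that of PO_con3. The CV among normal fish was 81.1%, 106% and 44.4% without PO_con1, PO_con2 and PO_con3 in turn. Among albino fish it was 41.7%, 16.1% and 26.6% without PO_alb1, PO_alb2 and PO_alb3 in turn. The counting intervals hold counting error only, and separate fish can be further apart than that for any pair of genes. What part of the reads came from muscle taken with the skin was not tested.

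**Figure D4:**
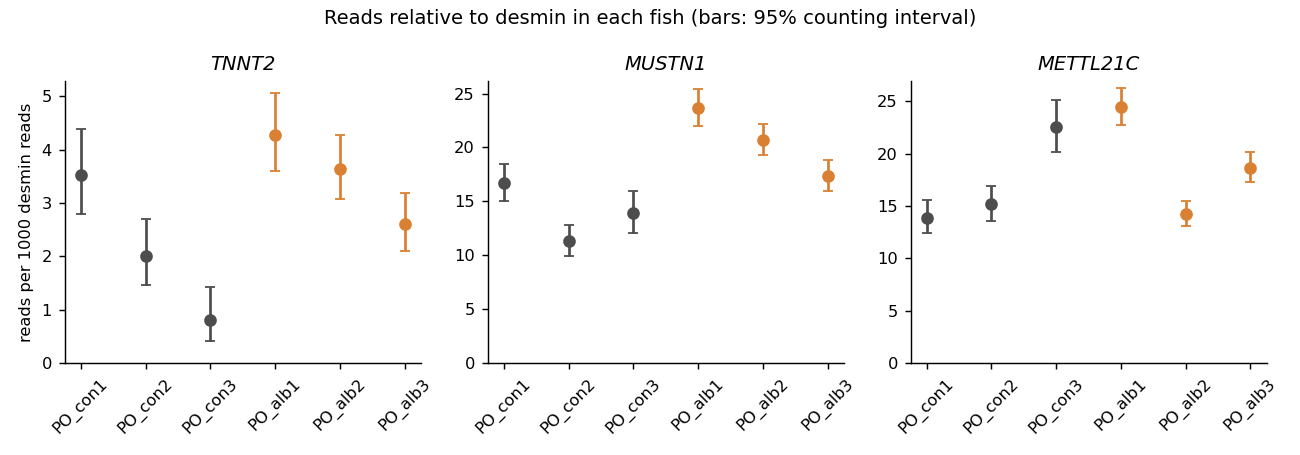
Reads of TNNT2, MUSTN1 and METTL21C per 1000 desmin reads of the same library (vertical axes, from 0), normal fish in grey and albino fish in orange, with 95% counting intervals as bars. The ratio of TNNT2 runs from 0.811 to 4.27, that of MUSTN1 from 11.3 to 23.6 and that of METTL21C from 13.9 to 24.4, with METTL21C high in PO_con3, where TNNT2 is lowest.

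The correlations of the members were then read against those with all other genes tested, as a description over 6 fish that share their libraries and scaling. MUSTN1 stood 121st of 16259 genes in likeness to TNNT2 (0.744% from the top), and TNNT2 231st in likeness to MUSTN1. In likeness to DES, however, TNNT2 stood 1826th, MUSTN1 2068th and METTL21C 5148th (31.7%). An r of 0.9 or more with DES was shared by 1209 genes (7.44%). Together they held 18.9% of the counts of PO_con3, 31.7% of those of PO_alb3 and 24.0% to 27.6% of each other library. They were picked for varying as DES does, so these shares follow in part from the choice. An r of 0.9 or more was shared by 456 genes with TNNT2, 757 with MUSTN1 and 315 with METTL21C. With library totals 183 genes (1.13%) reached it with DES, and they held 1.62% to 3.01% of the counts of a library. TNNT2 then stood 408th and MUSTN1 1008th in likeness to DES, and METTL21C 9390th. In both scalings, then, MUSTN1 was near the top for TNNT2, while many genes varied with DES as closely as the other 3 did. Most genes of the table have no name in the sources, so how many of these are genes of muscle is not known here.

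**Figure D5:**
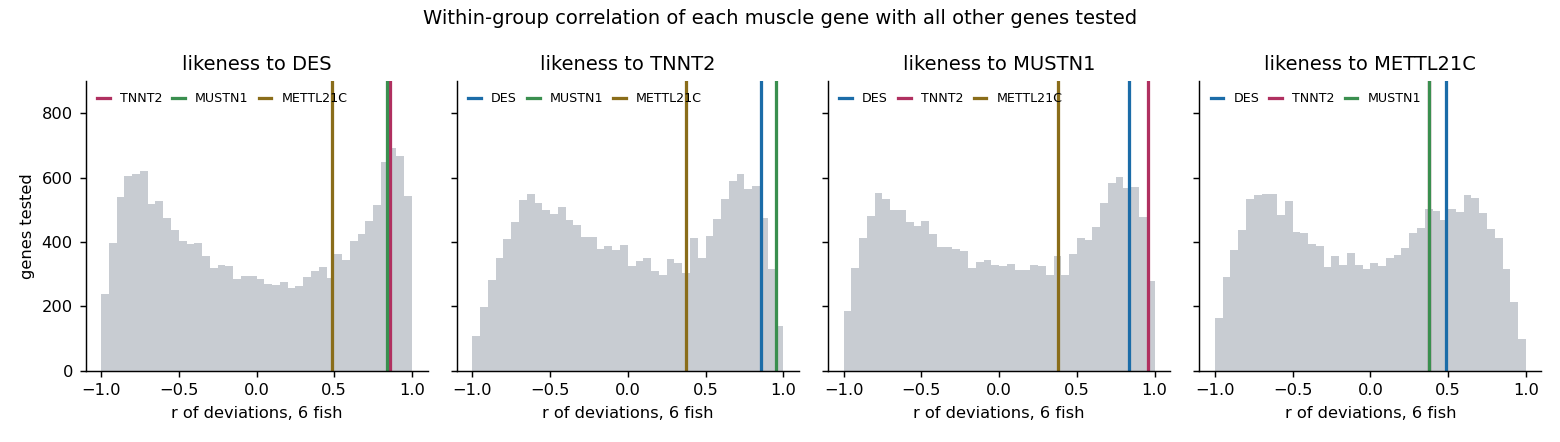
Number of genes tested (vertical axis) by their within-group correlation over 6 fish (horizontal axis, bins of 0.05) with each of the 4 muscle genes, with the other 3 marked as coloured lines. DES has 1209 genes at 0.9 or more and its nearest muscle gene lies at 0.86, TNNT2 and MUSTN1 lie at 0.96 to each other, and in the panel of METTL21C the lines of TNNT2 and MUSTN1 coincide near 0.38.

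Among the genes that the study's tables name, those most like each muscle gene were picked by r of the deviations over the 6 fish. These names come from the study's list of genes different between the groups. DES was most like FAM8A1 (GS_016447, r 0.94, 0.83 with library totals) and a trypsin (GS_012394, r 0.91, 0.78 with library totals), ahead of TNNT2 after TMM. Among all 16259 other genes they stood only 680th and 1074th. With library totals the trypsin was behind TNNT2 (0.82). It had 15, 20 and 13 reads in PO_alb1, PO_alb2 and PO_alb3. FAM8A1, a protein of the degradation of proteins at the endoplasmic reticulum, was at 39.8, 31.6 and 15.8 CPM in the normal and 57.2, 52.5 and 66.5 CPM in the albino fish. The trypsin, a digestive protease, was at 8.76, 7.21 and 4.44 CPM in the normal and 0.800, 1.03 and 0.908 CPM in the albino fish, lower in all albino fish, so its likeness to DES is in the fish of 1 group and not in the groups. TNNT2 was most like MUSTN1 (r 0.96), the same trypsin (0.95) and FAM8A1 (0.95). With library totals it was most like FAM8A1 (0.97), MUSTN1 (0.90) and DES (0.82), ahead of the trypsin (0.80). MUSTN1 was most like TNNT2, FAM8A1 (0.92, 572nd of all other genes) and the lipid droplet protein perilipin 2 (PLIN2 GS_012001, 0.92, 575th). With library totals it was most like TNNT2 (0.90), ENDOD1 (GS_019585, 0.88) and PLIN2 (0.81), ahead of FAM8A1 (0.79).

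METTL21C had other neighbours, among them the chaperone HSPA8 (GS_003073, r 0.93, 0.79 with library totals) and the glutamate receptor gene GLRK (GS_006975, r 0.92, 0.75 with library totals). HSPA8 was at 1660, 1463 and 1074 CPM in the normal and 2991, 2259 and 3731 CPM in the albino fish, with PO_con3 and PO_alb2 the low fish of their groups as for METTL21C. With library totals the most like were SLC22A7 (r 0.95), CCDC18 (0.93) and HEBP2 (0.93), which had r of 0.64, 0.39 and 0.30 after TMM. The study's list gives each of these genes few reads in albino fish, so counting error weighs on their correlations. The neighbours of METTL21C were thus not the same genes under the 2 scalings.

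Of 53 symbols listed as other genes of muscle (39 of striated muscle such as myosin and actin, 7 of smooth muscle and 7 of the muscle lineage), the sources named 1, PAX7 (GS_003876), so the list could not be counted. PAX7, a transcription factor of muscle stem cells that also acts in pigment cells of fish, was at 4.95, 4.40 and 5.22 CPM in the normal and 1.81, 1.85 and 2.93 CPM in the albino fish. PAX7 was higher in all normal fish, the opposite of the 4 muscle genes. It has a name here because the study listed it as lower in albino fish, so this direction follows from that choice. Its normal values rest on 87, 83 and 121 reads and lay close together. PO_con3, the lowest normal fish for the 4 muscle genes after TMM, was only slightly above PO_con1, the highest for them. Whether other troponins, myosins or actins of these libraries moved with the 4 genes was not analysed here. TNNT2 and MUSTN1 have close relatives in the flounder, listed by RefSeq as tnnt2a, tnnt2b, tnnt2c and tnnt2e and as mustn1a and mustn1b, and which of these each ID stands for was not determined, so reads shared with a relative make these 2 values uncertain.

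Levels of markers of other cell types of skin were read in the same libraries. Whether these markers varied with the muscle genes from fish to fish was not analysed. The summed RPKM of 3 keratin genes of the epidermis was 485 to 1190 in normal and 153 to 333 in albino fish. The most abundant of them, KRT13 (GS_014679), was at 475, 630 and 1173 in PO_con1, PO_con2 and PO_con3. It was at 331, 251 and 152 in PO_alb1, PO_alb2 and PO_alb3. Desmin alone was at 579 to 852 RPKM in normal and 1287 to 1518 in albino fish, most of the sum of the 4 muscle genes. The summed RPKM of these 4 genes was 648 to 932 in normal and 1526 to 1747 in albino fish. It was 60.6 to 100.3 against 1.49 to 5.16 for 5 genes of pigment cells, 41.8 to 97.2 against 6.96 to 11.4 for 5 genes of connective tissue and skeleton, and 8.78 to 20.8 against 0.985 to 2.57 for 3 genes of immunity. None of these genes was at 0 in all fish of a group, and all of them came from the same study list as the muscle genes. Other genes of that list went the other way. Of 5 further genes of immunity, 4 had a higher RPKM in all albino fish than in all normal fish, among them lysozyme g (LYG, GS_010174) at 41.2 to 51.6 in normal and 91.2 to 212 in albino fish. The collagen chain COL1A2 (GS_000465, a fragment) was at 0.425 to 1.04 in normal and 2.23 to 3.00 in albino fish. These 6 genes were chosen after their values were seen. Their part in the levels of the muscle genes was not tested.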

How the data were processed

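Skin mRNA of 6 flounder was sequenced with paired reads. The authors mapped the reads by TopHat2 2.0.9 (index from Bowtie2 2.0.6), then assembled transcripts with Cufflinks 2.1.1 and made counts per gene with HTSeq, and they deposited these counts without scaling. The deposited RPKM are the authors' counts divided by gene length and by the summed counts of the library. Of the lengths of known genes with reads, 99.995% are multiples of 3, so they are coding lengths. The genome build and the strand setting are not given in the sources used here, and the authors' own test was DESeq.

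Albino and normal fish were fitted in R 4.3.3 with edgeR 4.0.16 (filterByExpr, TMM, quasi-likelihood test) over 16260 genes, with Benjamini-Hochberg adjustment and a threshold of 0.05. Log2 CPM used a prior count of 2. Correlations were computed in Python 3.11.15 with scipy 1.17.1 from deviations from group means, with exact permutation within groups. Intervals are 95% Clopper-Pearson or Poisson intervals of the reads of 1 library and cover counting error only, not differences between fish. The reads carry no molecular identifiers. The median SD of a gene gives the precision between fish, and the common biological coefficient of variation was 21.8%. The alternatives were RLE scaling, library totals, other filters, DESeq2 1.42.0, limma-trend (limma 3.58.1) on log2(RPKM + 1), log2(RPKM + 0.1), a fit with fish numbers as a replicate block, and each fish left out in turn. The test was tried on simulated data with known changes.

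The members and lists were chosen with earlier results of these data known. The genes named are the 4 members, the 3 genes most like each of them among the 211 IDs that the paper's tables name (1 of these genes is not reported here), PAX7 as the only listed muscle gene with a name, and marker genes. Names are matches to proteins of other species, and the RefSeq gene table did not pair them with the IDs.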

Additional observations from a re-analysis of the deposited data

How the results depend on the processing

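The number of genes called between albino and normal fish was 169 with TMM and edgeR. It was 106 with library totals, 356 with DESeq2, 96 with limma-trend on log2(RPKM + 1), and 69 to 152 after dropping 1 fish, with fewer fish then tested. With the replicate number as a block it was 57. The sources state no pairing of fish by number. Deviations of same-numbered fish correlated at -0.17, 0.18 and -0.44 across genes, which by itself cannot show whether the numbers pair fish. The normal fish 1 and 3 correlated best with albino fish 3 and 1.

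The mean within-group correlation of the 6 pairs was 0.65. It was 0.18 with library totals, log2(RPKM + 1) or log2(RPKM + 0.1), and 0.27 to 0.89 with 1 fish left out, lowest without PO_con3. The pairs of METTL21C with DES, TNNT2 and MUSTN1 turned to -0.51, -0.31 and -0.40 with library totals, to -0.50, -0.31 and -0.39 on log2(RPKM + 1) and to -0.50, -0.31 and -0.40 on log2(RPKM + 0.1). With 1 fish left out, that with TNNT2 ran from -0.11 without PO_con3 to 0.88 without PO_alb2. The cause of these turns was not tested beyond the scaling itself. The pairs of DES, TNNT2 and MUSTN1 stayed above 0 under each scaling with all fish. Fish were left out after TMM only. With any 1 fish left out these pairs also stayed above 0, but DES and TNNT2 were at only 0.072 without PO_con3. After TMM, however, TNNT2 and MUSTN1 were at -0.78 without both PO_con1 and PO_con3, which was not computed with library totals. All 6 pairs stayed above 0 with RLE scaling. The depth limits TNNT2, with 12 reads in PO_con3. No RPKM, scaling or block setting changed the direction of a member between the groups. This contrast chose the members, so that is no separate support for the direction.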
